A study of Mus musculus with 6 samples.

Results

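The unfolded protein response and the protein folding machinery of the endoplasmic reticulum (ER) were examined through 37 genes, chosen by symbol from a table of 16588 genes. All 37 were in the table and all 37 passed the filter on low counts, so no member was lost. They comprise 5 stress sensors and transcription factors, 2 genes of stress feedback, 9 chaperones and co-chaperones, 2 lectin chaperones, 5 genes of disulfide bond formation, 8 genes of ER-associated degradation (ERAD) and 6 genes of the translocon. RNA was measured by sequencing in activated lung ILC2s of mice (group 2 innate lymphoid cells), in 3 libraries labelled Cnr2 KO and 3 wild-type (WT) libraries whose genotype label is C57BL/6. Cnr2 encodes the cannabinoid receptor CB2. In both groups the mice were given intranasal rmIL-33 (recombinant mouse IL-33, 0.5 µg) on 3 days, and the ILC2s were isolated on day 4, sorted and then kept in culture for 18 h, so no unstimulated cells serve as a baseline. The labels give lung as the tissue, whereas the series title names adipose tissue. They state neither how the Cnr2 allele was made, nor the age of the mice, nor whether replicates came from separate animals or cultures. The p-values therefore reflect nothing beyond the scatter among these 6 samples, which could be technical.

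Proteins destined for secretion or for membranes enter the ER through the Sec61 channel, where chaperones fold them, oxidoreductases join their disulfide bonds and ERAD returns failed products to the cytosol for destruction. When unfolded proteins accumulate, the sensor IRE1 alpha splices Xbp1 mRNA, ATF6 is released from the membrane by proteolysis, and the kinase PERK phosphorylates the initiation factor eIF2 alpha, which slows translation in general while favouring that of Atf4. ILC2s secrete type 2 cytokines in quantity after IL-33, and the response is best known from other secretory cells such as plasma cells.

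The ER stress response element (ERSE), a promoter sequence bound by ATF6 together with the CCAAT-binding factor NF-Y, was looked for as CCAAT, 9 of any base and CCACG, on both strands. RefSeq promoter windows (GRCm38.p6, 250 bases before to 50 after a gene's start) were at hand for 31 of the 37 genes. The ERSE was found in 8 of these 31 (25.8%), against 37 of 27025 genes with a window (0.137%). The element was first described on promoters of ER chaperone genes, so this share is background and not an independent result. The matches are shown because the fold changes of the genes that carry them are set against those of the others below. Each is printed 5′ to 3′ in the direction of the motif with 10 bases on either side, and capitals mark the CCAAT and CCACG boxes.
Hspa5, chr2:34772015-34772053, plus strand: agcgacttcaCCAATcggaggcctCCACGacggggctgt
Creld2, chr15:88819510-88819548, minus strand: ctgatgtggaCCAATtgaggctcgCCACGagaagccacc
Calr, chr8:84847065-84847103, plus strand: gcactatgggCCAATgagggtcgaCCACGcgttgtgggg
Canx, chr11:50325790-50325828, minus strand: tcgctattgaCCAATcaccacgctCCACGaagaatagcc
Hsp90b1, chr10:86705628-86705666, minus strand: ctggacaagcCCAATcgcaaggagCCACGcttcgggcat
Hsp90b1, chr10:86705523-86705561, plus strand: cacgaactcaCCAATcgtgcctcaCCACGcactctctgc
Pdia6, chr12:17266481-17266519, plus strand: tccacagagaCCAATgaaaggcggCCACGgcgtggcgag
Dnajc3, chr14:118937817-118937855, plus strand: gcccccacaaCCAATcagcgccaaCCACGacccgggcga
Syvn1, chr19:6046522-6046560, plus strand: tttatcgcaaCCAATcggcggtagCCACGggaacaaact
The middle of the match lay between 35 bases upstream of the start in Syvn1 and 203 bases upstream in Hsp90b1, with 56 bases in Hspa5. The match ran in the direction of the gene in 6 of the 8 genes, opposite to it in Calr and Creld2, and both ways in Hsp90b1, which counts among the 6. A related element, ERSE-II (ATTGG, 1 of any base, CCACG), was found in Herpud1 and Dnajb11, 2 of 31 members (6.45%) against 12 of 27025 genes (0.0444%).
Herpud1, chr8:94386367-94386397, plus strand: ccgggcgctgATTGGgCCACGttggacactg

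Total counts were 19399819, 18811836 and 17867541 in libraries labelled Cnr2 KO, against 19056174, 129617689 and 19091963 in the WT libraries, so that the depth of WT replicate 2 was 6.88 times the mean over the other libraries. Levels are given as CPM, counts scaled to a common library size with TMM factors, and fold changes are of libraries labelled Cnr2 KO over WT. The targeted gene went against its label. Cnr2 had 147, 139 and 135 counts in libraries labelled Cnr2 KO, against 76, 503 and 60 counts in WT, or 7.49 ± 0.0627 CPM in libraries labelled Cnr2 KO against 3.69 ± 0.449 CPM in WT (SD, n = 3 each). Its log2 fold change was 1.01 (SE 0.16, adjusted p = 2.11e-05 in edgeR) and the groups are named here by their labels alone. Whether the labels were exchanged was not tested; if they were, every direction given below would turn round. The table gives no values by exon, so a missing exon would not show. Of 13 ILC2 markers, all in the table, 9 were higher and 3 were lower. Gata3 had 1073 ± 18.7 CPM in libraries labelled Cnr2 KO and 288 ± 13.5 CPM in WT, and Il2ra, the lower one with the most counts, 2680.1 ± 178 CPM in libraries labelled Cnr2 KO and 5451 ± 126 CPM in WT. Their sum, 13333 to 14433 CPM in libraries labelled Cnr2 KO and 14266 to 14815 CPM in WT, is dominated by Il5 and Il2ra and does not show these differences. Of 13 B cell and plasma cell markers, 6 were in the table, with sums of 134 to 136 CPM in libraries labelled Cnr2 KO and 116 to 130.3 CPM in WT, most of it Prdm1 (78.8 CPM in libraries labelled Cnr2 KO, 99.0 CPM in WT). Of the 5 tested, 2 were higher and 2 lower. Ighm, the heavy chain of IgM, had 27.9 ± 1.33 CPM in libraries labelled Cnr2 KO and 3.32 ± 0.478 CPM in WT (8.83-fold higher, edgeR adjusted p = 5.75e-14), and Cd79b was 1.52-fold higher. Jchain, which plasma cells express strongly, was at or near 0 (0.0171 CPM in libraries labelled Cnr2 KO, 0.0387 CPM in WT), and Ms4a1, Cd79a and Mzb1 were not among the genes analysed here. T cell markers, 8 of 11 in the table, summed to 116 to 125 CPM in libraries labelled Cnr2 KO against 67.7 to 70.6 CPM in WT, with 4 higher and 1, Trac, lower. Mast cell, basophil and eosinophil markers, 6 of 10, summed to 172 to 188 CPM in libraries labelled Cnr2 KO against 99.3 to 108 CPM in WT, nearly all of it Kit (173 CPM in libraries labelled Cnr2 KO, 98.2 CPM in WT). Of the others, Fcer1a and Cpa3 were higher and Mcpt8 was lower, each averaging below 3 CPM in either group. Macrophage markers, 3 of 11, gave 3.44 to 5.66 CPM in libraries labelled Cnr2 KO against 1.05 to 1.67 CPM in WT. Dendritic cell markers, 5 of 8, gave 20.4 to 25.6 CPM in libraries labelled Cnr2 KO against 10.9 to 13.5 CPM in WT, most of it Xcr1, while Batf3 was listed at 0 in libraries labelled Cnr2 KO and had 1.02 CPM in WT. Epithelial markers, 4 of 8, gave 45.7 to 51.6 CPM in libraries labelled Cnr2 KO against 12.6 to 27.1 CPM in WT. That sum rests on Epcam (46.4 CPM in libraries labelled Cnr2 KO, 11.0 CPM in WT), while Krt18 was lower (1.16 CPM in libraries labelled Cnr2 KO, 3.43 CPM in WT) and Krt8 was at 0 in libraries labelled Cnr2 KO and had 8.61, 1.91 and 0 CPM in WT. Endothelial and fibroblast markers, 6 of 9, gave 40.8 to 45.2 CPM in libraries labelled Cnr2 KO against 108 to 116 CPM in WT, nearly all of it Pecam1. Markers of NK cells, 1 of 6 in the table, and of neutrophils, 2 of 7, summed to at most 2.62 CPM in any library. The part of such cells in the results below was not tested.

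The genes of the unfolded protein response did not move as a block. Xbp1, Ddit3, the oxidoreductases Pdia3 and Ero1l and most of the ERAD group were higher in libraries labelled Cnr2 KO, while the chaperone Hspa5, the lectins Calr and Canx and the feedback gene Ppp1r15a were lower. In the quasi-likelihood test of edgeR, 15 of the 37 genes were higher, 13 were lower and 9 did not pass an adjusted p of 0.05. The called share was 75.7%, beside 66.3% of the 12150 genes tested, of which 33.1% were higher and 33.2% were lower. A fold change of at least 1.5 was reached by 6 of the 37 (16.2%), 5 of them higher and 1 lower, beside 32.6% of all genes tested. The values of the 2 groups did not overlap in 29 of the 37 (78.4%), beside 68.9% of all genes tested. The median log2 fold change was 0.01 for the 37 genes and 0.01 for all genes, and the median size of change without regard to sign was 0.21 and 0.40. The counts called were thus near the background, while changes of 1.5-fold or more were a smaller share than among all genes. In such bulk samples, fewer cells of a type and less RNA per cell cannot be told apart.

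**Figure D1:**
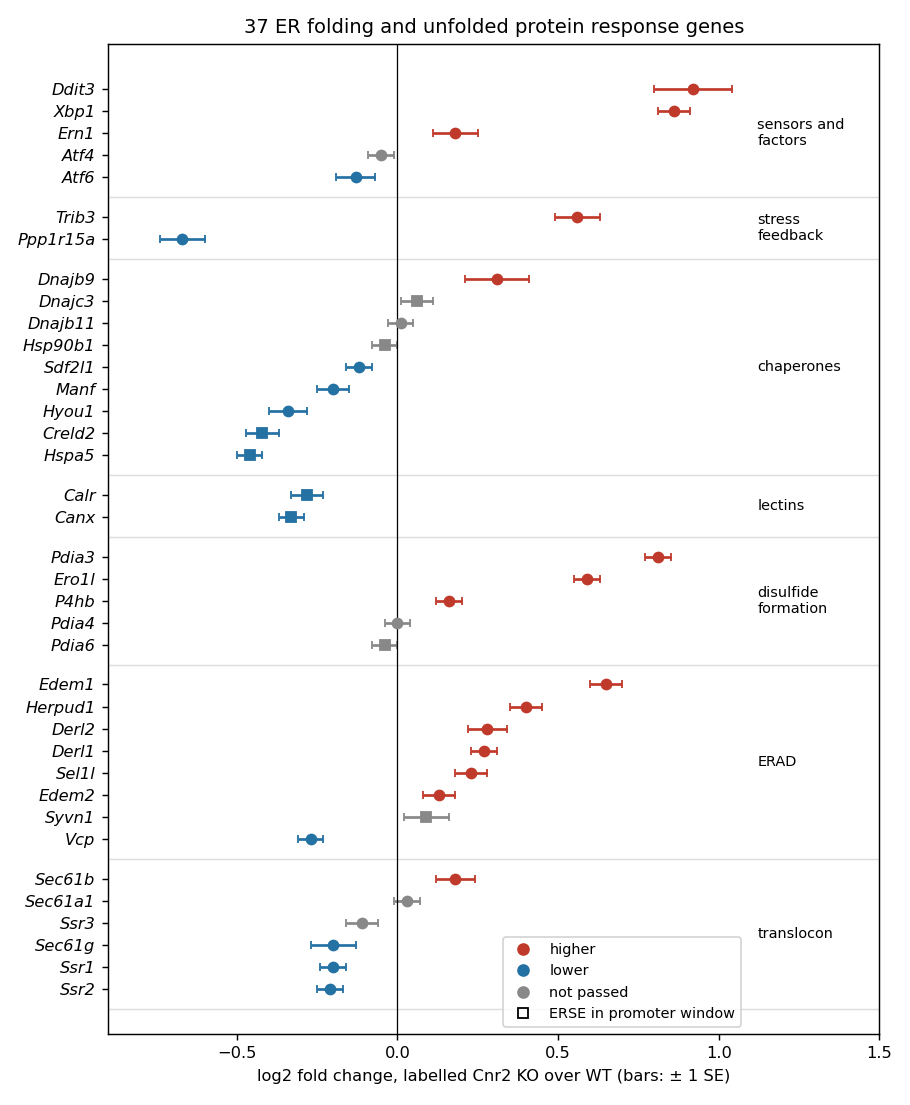
Log2 fold change of each of the 37 genes, libraries labelled Cnr2 KO over WT, with bars of 1 SE, grouped by role; red is higher, blue lower and grey not passed, and squares mark genes with an ERSE in the promoter window. Values run from -0.67 for Ppp1r15a to 0.92 for Ddit3. The ERAD genes lie mostly right of 0 and the chaperones mostly left of it, and no square is red. Squares need an exact match of the ERSE letters, so near matches such as that of Ddit3 have none.

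Among the sensors and transcription factors, Xbp1 and Ddit3 rose by nearly the same factor, while the 2 sensor genes changed little and Atf4 did not pass the test. Xbp1 (ENSMUSG00000020484.18, chromosome 11, 5520659 to 5525893, GRCm38, plus strand) encodes the transcription factor that drives ERAD and ER expansion once its mRNA is spliced. It had 851, 859.8 and 790.4 CPM in libraries labelled Cnr2 KO, against 456, 473 and 448 CPM in WT. The lowest library labelled Cnr2 KO thus lay far above the highest WT library. Xbp1 thus rose 1.82-fold, or by 0.86 on the log2 scale (SE 0.05, adjusted p = 4.82e-12 in edgeR). The value covers spliced and unspliced Xbp1 mRNA together, so splicing by IRE1 alpha was not measured. Ddit3 (chromosome 10, 127290774 to 127296288), which encodes CHOP, a factor tied to death under prolonged ER stress, was scarce. Its levels were 16.0, 14.1 and 12.8 CPM in libraries labelled Cnr2 KO, against 7.67, 7.08 and 8.30 CPM in WT. The groups did not overlap, and the log2 fold change was 0.92 (SE 0.12, adjusted p = 2.87e-06 in edgeR), or 1.89-fold. Exons of Ddit3 overlap those of Mars and Gm4189 on the other strand and of a second annotated Ddit3 gene, and the strand setting of the counting was not stated, so some of its counts may belong to them.

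Ern1, which encodes IRE1 alpha, had 91.6, 79.5 and 75.6 CPM in libraries labelled Cnr2 KO, against 73.8, 72.8 and 71.2 CPM in WT. The groups stood apart narrowly, and 1 library labelled Cnr2 KO lay well above the others. Its log2 fold change was 0.18 (SE 0.07, adjusted p = 0.0232 in edgeR). Without replicate 1 of libraries labelled Cnr2 KO it was 0.10 (adjusted p = 0.203), and the call was also lost without WT replicate 2 (0.0558) or WT replicate 3 (0.0691), with adjusted p-values of 0.00739 to 0.24 over all 14 alternatives. Atf6, the sensor that becomes a transcription factor when cut, had 76.3, 76.0 and 76.6 CPM in libraries labelled Cnr2 KO, against 86.4, 84.6 and 79.3 CPM in WT. All 3 WT libraries were higher, by a small margin, and the log2 fold change was -0.13 (SE 0.06, adjusted p = 0.0494 in edgeR). This call passed under 6 of 14 alternatives, with adjusted p-values of 0.000416 to 0.128. It was lost without replicate 1 (0.0964), 2 (0.113) or 3 (0.0846) of libraries labelled Cnr2 KO and without WT replicate 1 (0.128) or 2 (0.119). Atf4, the factor at the end of the PERK arm, had 322, 316 and 324 CPM in libraries labelled Cnr2 KO, against 327, 328 and 339 CPM in WT. The groups did not overlap, yet the difference was small beside the spread of genes at this level, with a log2 fold change of -0.05 (SE 0.04, adjusted p = 0.35 in edgeR). Atf4 is regulated mainly by translation, which these data do not measure.

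The 2 genes of stress feedback moved in opposite directions. Trib3 (chromosome 2, 152337422 to 152344032, minus strand) encodes a pseudokinase induced by ATF4 and CHOP that acts back on ATF4. It had 66.9, 68.6 and 75.0 CPM in libraries labelled Cnr2 KO, against 45.6, 46.9 and 50.0 CPM in WT. Every library labelled Cnr2 KO was above every WT library, and the gene rose 1.48-fold (log2 fold change 0.56, SE 0.07, adjusted p = 4.14e-07 in edgeR). Ppp1r15a (chromosome 7, 45522916 to 45526268, minus strand) encodes the phosphatase subunit that restores translation by removing phosphate from eIF2 alpha. It had 28.2, 25.6 and 26.7 CPM in libraries labelled Cnr2 KO, against 42.5, 41.9 and 43.6 CPM in WT. The replicates of each group were close together and far from the other group. The gene was 1.59-fold lower, with a log2 fold change of -0.67 (SE 0.07, adjusted p = 1.67e-07 in edgeR), the lowest of the 37. An exon of Tulp2 on the other strand overlaps it.

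**Figure D2:**
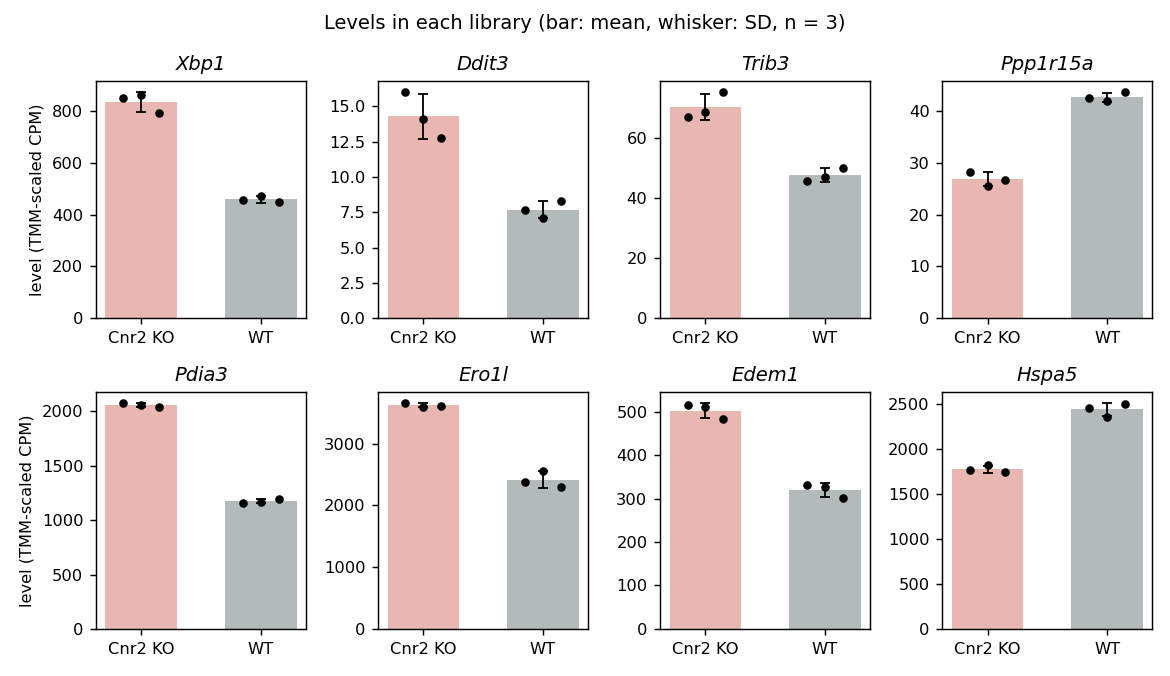
Levels of 8 genes in each library in TMM-scaled CPM; points are libraries, bars the means and whiskers the SD of the 3 libraries labelled Cnr2 KO (left) and the 3 WT libraries (right). The groups do not overlap in any of the 8 panels; Ppp1r15a and Hspa5 are lower in libraries labelled Cnr2 KO and the other 6 are higher.

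The chaperones were mostly lower or did not pass. Of 9 genes, 5 fell (Hspa5, Creld2, Hyou1, Manf and Sdf2l1), 1 rose (Dnajb9) and 3 did not pass (Hsp90b1, Dnajb11 and Dnajc3), with a median log2 fold change of -0.12. The called share, 66.7%, was near the 66.3% of all genes tested, of which 33.2% were lower. The 16 other chaperones and isomerases listed further below went the other way, with 9 higher, 4 lower and a median of 0.17. Hspa5 (ENSMUSG00000026864.13, chromosome 2, 34771970 to 34777547, plus strand) encodes BiP, the chief Hsp70 chaperone of the ER, which also holds the stress sensors inactive. It had 1767, 1814 and 1736 CPM in libraries labelled Cnr2 KO, against 2451, 2356 and 2496 CPM in WT. The groups were well apart, and Hspa5 was 1.37-fold lower (log2 fold change -0.46, SE 0.04, adjusted p = 7.85e-09 in edgeR). Hsp90b1, the Hsp90 chaperone of the ER and, like Hspa5, a carrier of the ERSE, had 2056, 2126 and 2101 CPM in libraries labelled Cnr2 KO, against 2132, 2126 and 2186 CPM in WT. Its groups overlapped, and the log2 fold change was -0.04 (SE 0.04, adjusted p = 0.42 in edgeR).

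Creld2, an ER-resident factor known as a marker of ER stress, had 196, 196 and 195 CPM in libraries labelled Cnr2 KO, against 257, 275 and 252 CPM in WT. Libraries labelled Cnr2 KO were nearly identical, and the log2 fold change was -0.42 (SE 0.05, adjusted p = 2.34e-07 in edgeR). Hyou1, a large Hsp70-like protein that exchanges the nucleotide of BiP, had 194, 178 and 176 CPM in libraries labelled Cnr2 KO, against 253, 220.2 and 219 CPM in WT. All WT libraries were higher, with a log2 fold change of -0.34 (SE 0.06, adjusted p = 5.11e-05 in edgeR). Manf, a small stress-induced protein that can be secreted, averaged 249 ± 8.60 CPM in libraries labelled Cnr2 KO and 286 ± 15.2 CPM in WT (log2 fold change -0.20, edgeR adjusted p = 0.00169). Its exons overlap Rbm15b on the same strand and Dcaf1 on the other. Sdf2l1, a partner of the J-domain protein Dnajb11, averaged 237 ± 5.64 CPM in libraries labelled Cnr2 KO and 257 ± 5.24 CPM in WT. Its log2 fold change of -0.12 (edgeR adjusted p = 0.0271) turned to 0.03 with an offset for GC content and length. The call was also lost without replicate 1 (0.102) or 2 (0.0543) of libraries labelled Cnr2 KO or without WT replicate 1 (0.0724), with adjusted p-values of 0.0138 to 0.646 over the alternatives.

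The 3 J-domain co-chaperones, which hand substrates to BiP and trigger its ATPase, differed from BiP itself. Dnajb9, a co-chaperone that also represses IRE1 alpha, had 20.7, 23.0 and 23.5 CPM in libraries labelled Cnr2 KO, against 15.5, 19.6 and 18.2 CPM in WT. The groups did not overlap, but 1 WT library was well below the other 2. The log2 fold change was 0.31 (SE 0.10, adjusted p = 0.00975 in edgeR), and it was 0.23 (adjusted p = 0.061) without WT replicate 1, within a range of 0.000885 to 0.061 over the alternatives. Dnajb11 had 330.4, 336 and 333 CPM in libraries labelled Cnr2 KO, against 319, 328 and 344 CPM in WT, with overlapping groups and a log2 fold change of 0.01 (SE 0.04). Dnajc3, which inhibits PERK, had 268, 276 and 264 CPM in libraries labelled Cnr2 KO, against 251, 268 and 257 CPM in WT, again overlapping (log2 fold change 0.06, SE 0.05). Relative to Hspa5 in the same library and per length, the J-domain genes were higher in libraries labelled Cnr2 KO. The ratio of Dnajb11 to Hspa5 was 0.244, 0.242 and 0.250 in libraries labelled Cnr2 KO, against 0.170, 0.182 and 0.180 in WT. For Dnajc3 to Hspa5 it was 0.125 ± 0.00023 in libraries labelled Cnr2 KO against 0.0875 ± 0.0052 in WT, and for Dnajb9 to Hspa5 it was 0.0209 ± 0.0015 in libraries labelled Cnr2 KO against 0.0121 ± 0.0016 in WT (SD, n = 3 each). None of these ratios overlapped between groups, and no test was made of ratios.

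The lectin chaperones, calreticulin and calnexin, which hold glycoproteins during folding, both fell. Calr (chromosome 8) had 1228, 1122 and 1052 CPM in libraries labelled Cnr2 KO, against 1370.5, 1367 and 1379 CPM in WT. The WT libraries agreed closely and all lay above the more scattered libraries labelled Cnr2 KO, with a log2 fold change of -0.28 (SE 0.05, adjusted p = 7.15e-05 in edgeR). The annotation lists 1 pseudogene named after Calr, whose reads the counting could have shared. Canx (chromosome 11) had 1068, 1038 and 1012 CPM in libraries labelled Cnr2 KO, against 1327, 1312 and 1276 CPM in WT. Its groups were also apart, with a log2 fold change of -0.33 (SE 0.04, adjusted p = 9.65e-07 in edgeR). The ratio of Canx to Calr per length, 0.564 ± 0.028 in libraries labelled Cnr2 KO and 0.584 ± 0.014 in WT, overlapped between groups.

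Disulfide bond formation gave 3 genes that rose, Pdia3, Ero1l and P4hb, and 2 that did not pass, Pdia4 and Pdia6. Among all genes tested, 33.1% were higher. Pdia3 (chromosome 2, 121413775 to 121438687, plus strand) encodes the disulfide isomerase that works with Calr and Canx on glycoproteins and in loading of MHC class I. It had 2076, 2057 and 2038 CPM in libraries labelled Cnr2 KO, against 1160.3, 1165 and 1194 CPM in WT. The replicates lay tightly together in both groups, and Pdia3 rose 1.75-fold (log2 fold change 0.81, SE 0.04, adjusted p = 1.18e-12 in edgeR), whereas its lectin partners fell. An exon of Catsper2 on the other strand overlaps it. Ero1l (chromosome 14, 45283087 to 45318771, minus strand) encodes the oxidase that recharges protein disulfide isomerases and is also induced by hypoxia. It had 3655, 3596 and 3608 CPM in libraries labelled Cnr2 KO, against 2381, 2561 and 2296 CPM in WT. The groups were far apart, and Ero1l rose 1.5-fold (log2 fold change 0.59, SE 0.04, adjusted p = 5.74e-10 in edgeR).

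P4hb, the founding protein disulfide isomerase, had 1266, 1240.4 and 1239.8 CPM in libraries labelled Cnr2 KO, against 1129, 1072 and 1142 CPM in WT. The groups did not overlap, and the log2 fold change was 0.16 (SE 0.04, adjusted p = 0.00181 in edgeR). Pdia4 had 682, 679.8 and 634 CPM in libraries labelled Cnr2 KO, against 674, 671 and 652 CPM in WT, and Pdia6 averaged 906 ± 13.9 CPM in libraries labelled Cnr2 KO and 931 ± 30.8 CPM in WT. Both isomerases overlapped between groups, with log2 fold changes of 0.00 (SE 0.04) and -0.04 (SE 0.04). The mix of isomerases per length therefore differed. Pdia3 stood at 1.49, 1.51 and 1.5 times the level of P4hb in libraries labelled Cnr2 KO, against 0.936, 0.991 and 0.953 times in WT. Pdia6 stood at 0.554 ± 0.013 times P4hb in libraries labelled Cnr2 KO, against 0.639 ± 0.015 times in WT. Pdia4 stood at 0.635 ± 0.023 times P4hb in libraries labelled Cnr2 KO, against 0.713 ± 0.033 times in WT. The size of such ratios rests on the lengths used, which are the same in both groups. With the length of each gene's longest transcript, Pdia3 stood above P4hb in WT too (424 and 389 CPM per kb). Pdia6 then stood above P4hb in WT (428) but below it in libraries labelled Cnr2 KO (417 and 436).

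By count, ERAD was the role with the most genes higher, though the roles differ in size. Of 8 genes, 6 rose (Edem1, Herpud1, Derl2, Derl1, Sel1l and Edem2), 1 fell (Vcp) and 1 did not pass (Syvn1), with a median log2 fold change of 0.25. The shares among all genes tested were 33.1% higher and 33.2% lower. The 32 other ERAD genes listed further below did not share this lean, with 11 higher, 9 lower and a median of 0.01. Edem1 (chromosome 6, 108828641 to 108859356) encodes a lectin that takes mannose-trimmed glycoproteins out of folding and is a known target of Xbp1. It had 514, 510.4 and 482 CPM in libraries labelled Cnr2 KO, against 331, 327 and 302 CPM in WT. The groups were well apart, and Edem1 rose 1.57-fold (log2 fold change 0.65, SE 0.05, adjusted p = 6.1e-10 in edgeR). Its paralogue Edem2, which starts the trimming of mannose, had 178, 178 and 176 CPM in libraries labelled Cnr2 KO, against 165, 166 and 155 CPM in WT. This smaller difference passed narrowly (log2 fold change 0.13, SE 0.05, adjusted p = 0.0234 in edgeR). It was lost without replicate 1 (0.0511) or 2 (0.0637) of libraries labelled Cnr2 KO or without WT replicate 3 (0.117), with adjusted p-values of 0.00524 to 0.117 over the alternatives. The ratio of Edem1 to Edem2 per length was 1.55, 1.54 and 1.47 in libraries labelled Cnr2 KO, against 1.07, 1.06 and 1.05 in WT, with no overlap.

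Herpud1, a membrane protein that gathers the degradation complex and carries the ERSE-II shown above, had 305, 302 and 299 CPM in libraries labelled Cnr2 KO, against 218, 238 and 229.9 CPM in WT. It rose 1.32-fold, without overlap (log2 fold change 0.40, SE 0.05, adjusted p = 3.31e-07 in edgeR). Sel1l, the adaptor of the ubiquitin ligase of ERAD, had 212, 211 and 212 CPM in libraries labelled Cnr2 KO, against 182, 185 and 174 CPM in WT (log2 fold change 0.23, SE 0.05, adjusted p = 0.000202 in edgeR). Syvn1, the ligase itself, had 81.4, 74.8 and 70.9 CPM in libraries labelled Cnr2 KO, against 74.7, 73.4 and 64.6 CPM in WT. Its groups overlapped (log2 fold change 0.09, SE 0.07, adjusted p = 0.247 in edgeR), and so did the ratio of Sel1l to Syvn1 per length, 1.59 ± 0.11 in libraries labelled Cnr2 KO and 1.45 ± 0.074 in WT. The derlins, thought to form the exit path through the membrane, rose by the same factor. Derl1 averaged 308 ± 8.06 CPM in libraries labelled Cnr2 KO and 255 ± 3.36 CPM in WT, and Derl2 80.6 ± 3.13 CPM in libraries labelled Cnr2 KO and 66.5 ± 0.68 CPM in WT, each 1.21-fold (edgeR adjusted p = 2.4e-05 and 0.000307). The ratio of Derl1 to Derl2 per length was 9.25 ± 0.37 in libraries labelled Cnr2 KO and 9.27 ± 0.21 in WT. Vcp, the cytosolic ATPase that pulls substrates out, went the other way, with 1199.7, 1224 and 1137 CPM in libraries labelled Cnr2 KO, against 1426, 1413 and 1448 CPM in WT. All WT libraries were higher (log2 fold change -0.27, SE 0.04, adjusted p = 1.51e-05 in edgeR). Vcp also serves many processes outside the ER.

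**Figure D3:**
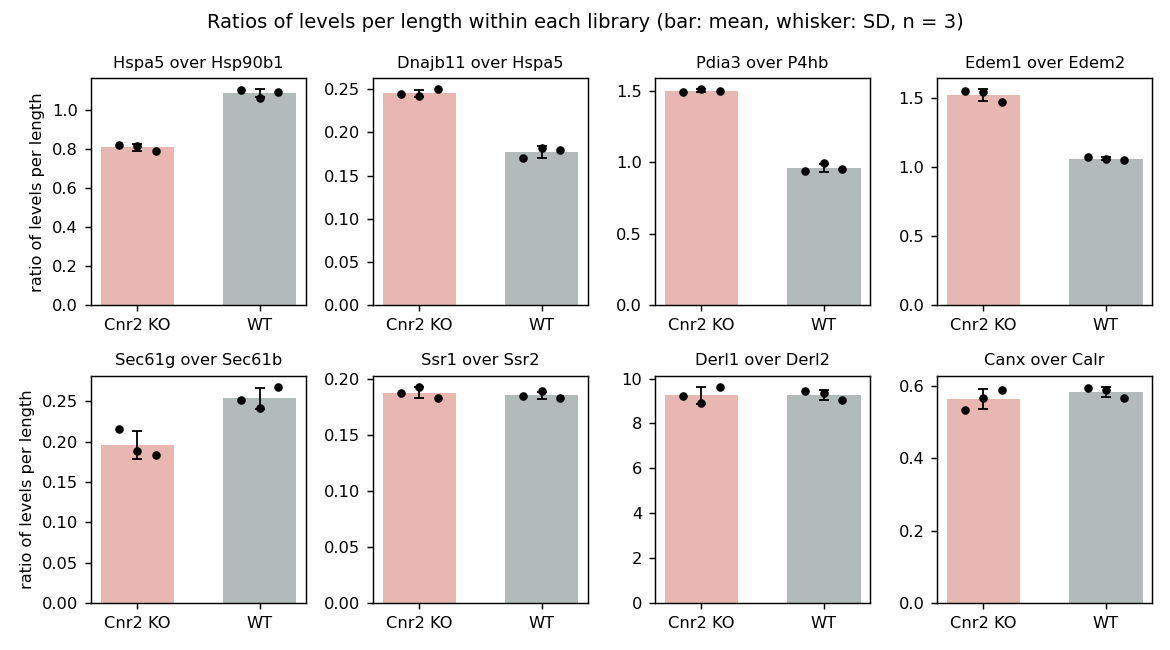
Ratios between 8 pairs of genes, each from levels per kb of exon in the same library; points are libraries, bars means and whiskers SD of the 3 libraries labelled Cnr2 KO (left) and the 3 WT libraries (right). The first 5 pairs do not overlap between groups, such as Pdia3 over P4hb at 1.5 in libraries labelled Cnr2 KO against 0.96 in WT, while Ssr1 over Ssr2, Derl1 over Derl2 and Canx over Calr overlap.

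The translocon changed little and in both directions. Of 6 genes, 1 rose (Sec61b), 3 fell (Ssr1, Ssr2 and Sec61g) and 2 did not pass (Sec61a1 and Ssr3), with log2 fold changes between -0.21 and 0.18. The called share was 66.7%, beside 66.3% of all genes tested. Sec61a1, the pore subunit, had 915, 922 and 885 CPM in libraries labelled Cnr2 KO, against 888, 894 and 879.6 CPM in WT, with overlapping groups (log2 fold change 0.03, SE 0.04, adjusted p = 0.495 in edgeR). Sec61b, a small subunit, had 86.7, 92.2 and 93.6 CPM in libraries labelled Cnr2 KO, against 80.7, 81.9 and 78.3 CPM in WT (log2 fold change 0.18, SE 0.06, adjusted p = 0.00935 in edgeR). Sec61g, the other small subunit, had 36.3, 33.8 and 33.2 CPM in libraries labelled Cnr2 KO, against 39.4, 38.4 and 40.7 CPM in WT (log2 fold change -0.20, SE 0.07, adjusted p = 0.0229 in edgeR). Neither small subunit overlapped between groups, though they moved in opposite directions. The call of Sec61g was lost without replicate 2 (0.0691) or 3 (0.0751) of libraries labelled Cnr2 KO or without WT replicate 3 (0.0516), with adjusted p-values of 0.0163 to 0.168 over the alternatives. Per length, Sec61g stood at 0.196 ± 0.018 times Sec61b in libraries labelled Cnr2 KO, against 0.254 ± 0.013 times in WT. The size of this ratio rests on the lengths used, so it was not set against the make-up of the protein complex. With longest-transcript lengths, Sec61g and Sec61b had 18.5 and 126 CPM per kb in libraries labelled Cnr2 KO and 21.2 and 111 in WT.

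The Ssr genes encode subunits of the translocon-associated protein complex, which helps some signal sequences enter the channel. Ssr1 had 314, 329.9 and 313 CPM in libraries labelled Cnr2 KO, against 359.8, 371 and 367 CPM in WT (log2 fold change -0.20, SE 0.04, adjusted p = 0.000619 in edgeR). Ssr2 had 299, 306 and 306 CPM in libraries labelled Cnr2 KO, against 347, 352 and 357 CPM in WT (log2 fold change -0.21, SE 0.04, adjusted p = 0.000235 in edgeR). Both fell by nearly the same factor without overlap, and the ratio of Ssr1 to Ssr2 per length was 0.188 ± 0.005 in libraries labelled Cnr2 KO and 0.186 ± 0.0027 in WT. Ssr3 had 270.1, 293 and 297 CPM in libraries labelled Cnr2 KO, against 299.8, 333 and 297 CPM in WT. It had the same sign but overlapped and did not pass (log2 fold change -0.11, SE 0.05, adjusted p = 0.0663 in edgeR). Without WT replicate 1 or WT replicate 3 its log2 fold change was -0.15 (adjusted p = 0.0398 and 0.0314), within a range of 0.0248 to 0.344 over the alternatives.

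Levels of different genes were compared per kb of merged exon. In libraries labelled Cnr2 KO the order was led by Ero1l (685 ± 5.95 CPM per kb) and Pdia3 (655 ± 6.14), followed by Hsp90b1 (519 ± 8.85), P4hb (437 ± 5.30), Hspa5 (419 ± 9.29) and Calr (394 ± 30.7). In WT it was led by Hspa5 (576 ± 16.9 CPM per kb), Hsp90b1 (533 ± 8.19), Calr (476 ± 2.10) and Ero1l (457 ± 25.6), followed by P4hb (389.5 ± 13.1) and Pdia3 (374 ± 5.74). Hspa5 was thus 5th in libraries labelled Cnr2 KO and 1st in WT, while Pdia3 was 2nd in libraries labelled Cnr2 KO and 6th in WT. Of these neighbours, Hspa5 and Calr lay within their SDs of each other in libraries labelled Cnr2 KO, as did Calr and Ero1l, and P4hb and Pdia3, in WT. Xbp1, a transcription factor, lay among the chaperones at 257 ± 11.6 CPM per kb in libraries labelled Cnr2 KO (8th of the 37) and 141 ± 3.87 in WT (14th). Among the 11952 tested genes with a length, Xbp1 was at percentile 98.9 in libraries labelled Cnr2 KO and 97.2 in WT, and Ero1l at 99.8 in libraries labelled Cnr2 KO and 99.5 in WT. At the other end, Ddit3 had 8.34 ± 0.959 CPM per kb in libraries labelled Cnr2 KO and 4.49 ± 0.354 in WT, and Atf6 had 8.26 ± 0.0311 CPM per kb in libraries labelled Cnr2 KO and 9.04 ± 0.402 in WT. Ddit3, the lowest of the 37 in WT per kb of merged exon (36th with the longest transcript), was at percentile 57.1 of all genes in libraries labelled Cnr2 KO and at 44.4 in WT. With the length of the longest transcript in place of merged exons, Hsp90b1 (667 CPM per kb) came 1st and Hspa5 (663) 2nd in WT, and Pdia3 came 7th there, behind Vcp and Pdia6. In libraries labelled Cnr2 KO, Pdia3 stayed 2nd and Hspa5 5th. The other lengths also moved the levels, for example to 392 CPM per kb for Xbp1 and 286 for Sec61a1 (135 with merged exons) in libraries labelled Cnr2 KO. Summed over the 37 genes, the level was 22230 ± 307 CPM in libraries labelled Cnr2 KO (2.21 to 2.25% of all counts) and 20990 ± 30.8 CPM in WT (2.08 to 2.09%). Abundant genes weigh most in this sum. Ero1l had 3619.7 CPM in libraries labelled Cnr2 KO and 2413 in WT, and Pdia3 2057 and 1173, while Hspa5 went the other way (1772 and 2434). The median log2 fold change of the 37 genes was 0.01.

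**Figure D4:**
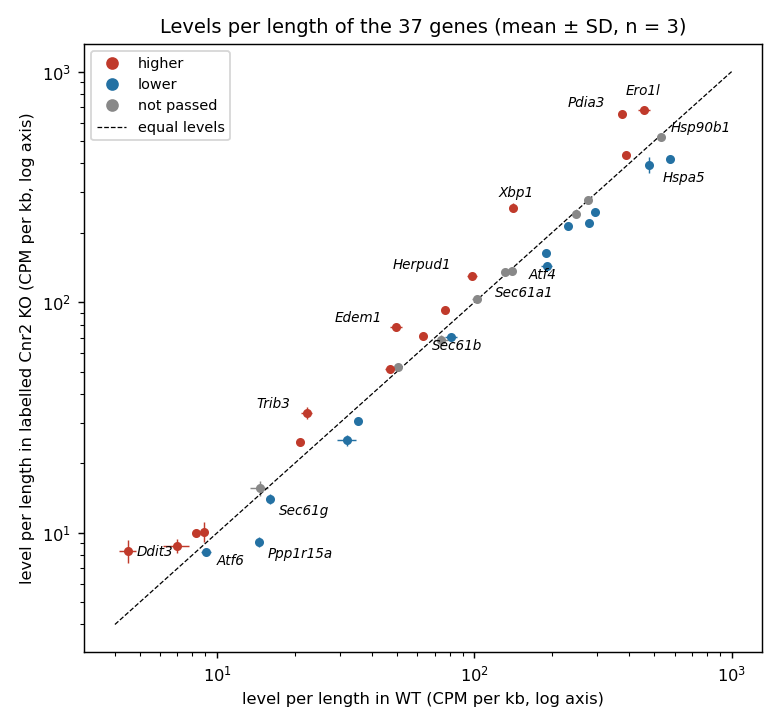
Level per kb of exon of each of the 37 genes in libraries labelled Cnr2 KO (vertical, log axis) against WT (horizontal, log axis), as mean ± SD of 3 libraries each; the dashed line marks equal levels. Xbp1, Pdia3, Ero1l, Edem1 and Ddit3 lie above the line and Hspa5 and Ppp1r15a below it, over a range from 4.49 (Ddit3 in WT) to 685 CPM per kb (Ero1l in libraries labelled Cnr2 KO).

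Set against the promoter sequences, the 8 genes with an ERSE were 0 higher, 4 lower (Hspa5, Creld2, Calr and Canx) and 4 not passed (Hsp90b1, Pdia6, Dnajc3 and Syvn1), with a median log2 fold change of -0.16 and values from -0.46 to 0.09. The 23 genes with a window but no ERSE were 14 higher, 5 lower and 4 not passed, with a median of 0.18. Outside the 37, 7 tested genes held an ERSE, of which 1 was higher, 3 were lower and 3 did not pass (median -0.03). These counts describe exact matches in the windows only, and no test was made of them. Among all genes tested, 33.1% were higher and 33.2% were lower. Of the carriers, Hspa5, Creld2, Hsp90b1, Dnajc3, Calr and Canx are chaperones or lectins, so the split by ERSE overlaps the split by role. A form with 1 changed letter counts here as no ERSE. Examples are in the windows of Ddit3 (GCACG for CCACG, on the other strand), Herpud1 and Pdia3 (CCACA for CCACG in each). Another is in that of Pdia4 (CCACT for CCACG, on the other strand). Ddit3, Herpud1 and Pdia3 were higher, and Pdia4 did not pass. The windows were not searched for such forms as a whole, so the calls of these examples do not describe all genes that hold one. The windows of Xbp1, Pdia3 and Ddit3 held no CCACG box, in common with those of Trib3, Sec61b and Sec61g. Such a box was held by 25 of the 31 genes (80.6%), against 35.5% of all 27025 genes. The share was 52.9% of the 9271 tested genes with a window and 65% of the other ER genes listed below. The shorter letters ACGTGG, a core recognised by XBP1 and ATF6, were in 8 windows (Dnajb9, Dnajc3, Herpud1, P4hb, Pdia6, Ssr1, Ssr3 and Vcp). That is 25.8%, against 9.4% of all genes, 13.7% of tested genes and 27.4% of the other ER genes. Of the 8 members, 3 rose, 2 fell and 3 did not pass, with a median of 0.01. The longer TGACGTGG, which contains ACGTGG, was in the window of Vcp alone (3.23%, against 0.714% of all genes and 5.73% of the other ER genes). The ATF4 and CHOP type TGATGCAA was in that of Herpud1 alone (3.23%, against 1.03% of all genes and 4.46% of the other ER genes). All letters were searched on both strands, and ACGTGG read on the other strand contains CCACG. A match is no proof of binding, and no match says only that the letters are not in these 300 bases.

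Other ER genes were read from lists of 196 genes, of which 188 were in the table and 182 were tested. They were 64 higher, 59 lower and 59 not passed, a called share of 67.6% beside the 66.3% of all genes, with a median log2 fold change of 0.02. Among 13 other sensors and proteases, 6 rose and 3 fell. Eif2ak3, which encodes PERK, averaged 57.0 ± 2.46 CPM in libraries labelled Cnr2 KO and 44.8 ± 2.72 CPM in WT (log2 fold change 0.35, SE 0.07, adjusted p = 0.000168 in edgeR). Creb3l2, an ATF6-like membrane-bound transcription factor, rose 2.36-fold, at 223 ± 8.86 CPM in libraries labelled Cnr2 KO and 94.4 ± 9.90 CPM in WT. Rtcb, the ligase that joins the exons of Xbp1 after IRE1 alpha has cut, was 1.51-fold lower, at 182 ± 4.60 CPM in libraries labelled Cnr2 KO and 275 ± 5.21 CPM in WT.

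The 26 listed targets of ATF4 were 6 higher and 14 lower, with a median log2 fold change of -0.13, beside 33.1% higher and 33.2% lower among all genes. Atf3, an immediate stress factor, had 1.18, 2.24 and 1.22 CPM in libraries labelled Cnr2 KO, against 11.9, 8.29 and 12.4 CPM in WT. It was 6.84-fold lower (log2 fold change -2.77, SE 0.23, adjusted p = 3.94e-09 in edgeR). Asns, asparagine synthetase and a classical ATF4 target, had 477, 524 and 493 CPM in libraries labelled Cnr2 KO, against 525, 527 and 538 CPM in WT. It did not pass (log2 fold change -0.09, SE 0.05, adjusted p = 0.0912 in edgeR), but passed without replicate 2 of libraries labelled Cnr2 KO (-0.13, adjusted p = 0.0398), within a range of 0.0398 to 0.774. Slc3a2, the heavy chain of amino acid transporters, rose 1.73-fold, at 851 ± 54.2 CPM in libraries labelled Cnr2 KO and 491 ± 28.7 CPM in WT.

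Among 16 other chaperones and isomerases, 9 rose and 4 fell (median 0.17). Fkbp2, a prolyl isomerase of the ER, rose 1.41-fold, and its relative Fkbp11 was 3.27-fold lower, at 2.41 ± 0.535 CPM in libraries labelled Cnr2 KO and 7.84 ± 0.623 CPM in WT. Of 17 other genes of disulfide formation, 8 rose and 2 fell (median 0.14). Txndc16 rose 2.47-fold (27.9 ± 1.66 CPM in libraries labelled Cnr2 KO, 11.4 ± 1.40 CPM in WT), and Pdia5 was 1.57-fold lower. Glucose trimming and the calnexin cycle gave 2 higher and 2 lower of 8. Mogs, the glucosidase that removes the first glucose of the glycan, was 1.89-fold lower, at 346 ± 6.76 CPM in libraries labelled Cnr2 KO and 653 ± 2.38 CPM in WT, while Man1b1, a mannosidase, rose 1.17-fold.

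The 32 other ERAD genes gave 11 higher and 9 lower, with a median of 0.01, beside 33.1% higher and 33.2% lower among all genes; they were not tested against the 8 described above. Ngly1, which strips glycans from proteins sent for degradation, rose 2.68-fold, at 233 ± 21.3 CPM in libraries labelled Cnr2 KO and 86.8 ± 3.57 CPM in WT. Erlin1 was 1.51-fold lower, at 40.8 ± 4.47 CPM in libraries labelled Cnr2 KO and 61.6 ± 2.46 CPM in WT. Of 28 other genes of translocation and signal cleavage, 7 rose and 13 fell (median -0.08). Sec11c, a catalytic subunit of signal peptidase, rose 2.47-fold (417 ± 12.9 CPM in libraries labelled Cnr2 KO, 169 ± 7.02 CPM in WT), and Sec61a2, the rarer paralogue of Sec61a1, was 1.93-fold lower (6.76 ± 0.268 CPM in libraries labelled Cnr2 KO, 13.1 ± 1.44 CPM in WT).

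Of 12 genes of the oligosaccharyl transferase, which attaches the glycans, 6 rose and 4 fell. Stt3b, 1 of its alternative catalytic subunits, rose 2.65-fold, at 700.0 ± 94.9 CPM in libraries labelled Cnr2 KO and 264 ± 14.1 CPM in WT, while Rpn1, a shared subunit, was 1.29-fold lower. In 31 genes of transport between ER and Golgi, 9 rose and 8 fell. Sec24d, a coat subunit that selects cargo, rose 1.52-fold, and Kdelr3, a receptor that returns ER proteins, was 2.00-fold lower, at 6.96 ± 1.13 CPM in libraries labelled Cnr2 KO and 13.8 ± 1.71 CPM in WT. For the 18 genes named as the largest called change in each direction of a list, edgeR adjusted p-values lay between 2.46e-14 (Sec11c) and 0.00552 (Man1b1), and none of them overlapped between groups.

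**Figure D5:**
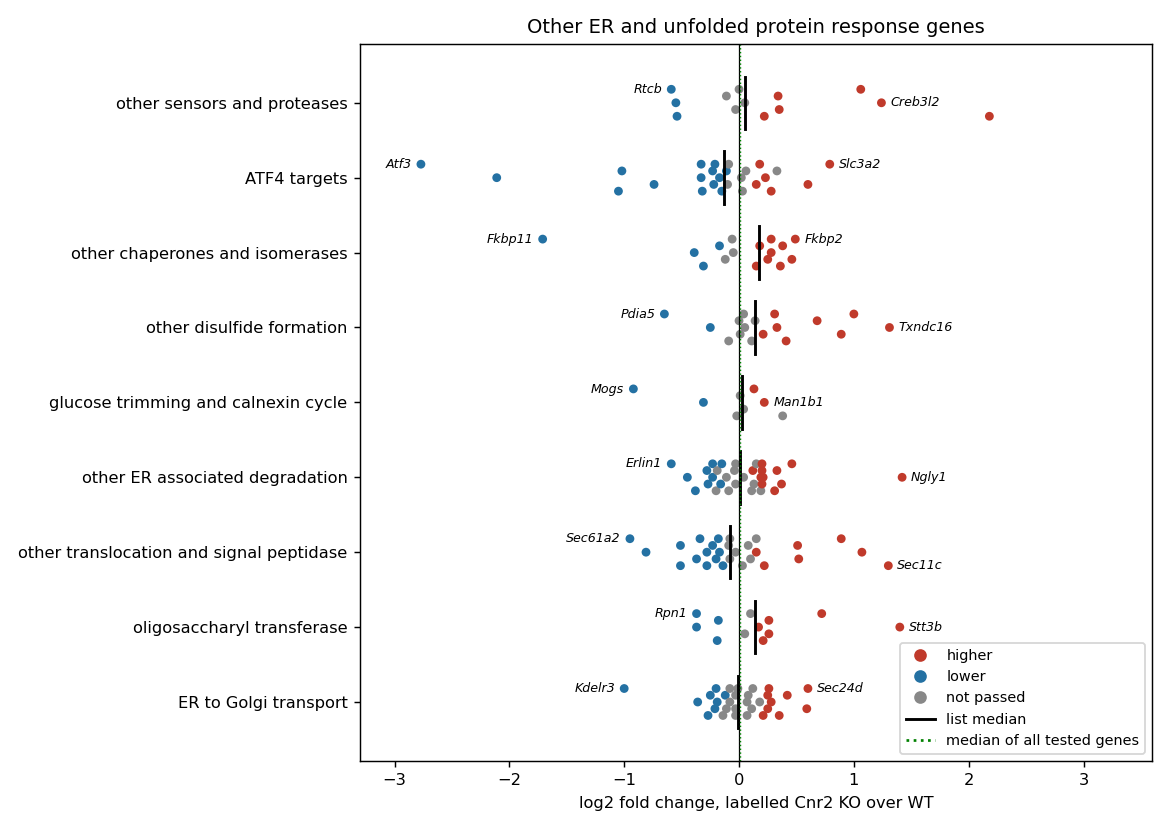
Log2 fold change, libraries labelled Cnr2 KO over WT, of the other ER and unfolded protein response genes in 9 lists; each point is a gene, coloured red for higher, blue for lower and grey for not passed, with the list median as a black bar and the median of all tested genes as a dotted line. List medians stay between -0.13 (ATF4 targets) and 0.17 (other chaperones and isomerases), while single genes range from -2.77 (Atf3) to 2.18.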

How the data were processed

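The values deposited are expected counts for each gene, which may hold fractions: a share of 59.08 to 81.23% per library was whole to within 0.02. The submitters' processing notes name Partek 10.0, STAR 2.7.8, DESeq2 and mm10 without saying what each did. How reads were counted, and with which strand setting, is not given in the sources used here. Per the labels, the cDNA kit (SMARTer Ultra Low Input, v3) started from 10 pg of RNA, and its amplification can widen the spread of scarce genes.

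Values were rounded to whole counts and tested with the quasi-likelihood test of edgeR 4.0.16 (R 4.3.3; TMM scaling; filterByExpr with minimum count 10 and minimum total 15; genotype as the only term; two-sided), over all 12150 genes that passed of 16588, with Benjamini-Hochberg adjustment and a threshold of 0.05. The approximate standard error (SE) is the absolute log2 fold change divided by the square root of F. The script was tested on simulated data. Positions and exon lengths are from the mouse GENCODE annotation M21, built on GRCm38 (mm10). Besides the overlaps given above, exons of other annotated genes overlap Hsp90b1 and Pdia4 on the same strand. On the other strand they overlap Hsp90b1, Dnajb9, Pdia6, Syvn1, Derl2, Vcp, Sec61a1 and Ssr2. The share of counts that may belong to the overlapping genes was not tested. Promoter windows are from RefSeq; the window of Ero1l was found under a synonym, and none was used for Hyou1, Sec61a1, Derl1, Atf6, Ssr2 and Manf.

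The 37 genes and all lists were chosen with earlier results of these data known. Values in every library are given for the sensors and factors, Hspa5, the lectins and genes called with an absolute log2 fold change of at least 0.5, and for further members where they help. Of each other list, the called gene with the largest change in each direction among genes of at least 5 CPM is named, with Eif2ak3, Atf3 and Asns. Within a group, counts of any 2 libraries differed beyond sampling noise, with a mean chi-square of 4.09 to 8.93 for each gene, and every library was used as 1 replicate. Log2 CPM correlated at 0.989 to 0.9927 within groups and at 0.9302 to 0.9383 between them. Precision is limited by 3 libraries a group rather than by depth for most of the 37 genes.

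Alternatives were DESeq2 size factors, no filter, a filter of 10 CPM in 3 libraries, the replicate number as a block, leaving out each library, DESeq2 1.42.0, limma 3.58.1 (voom with quality weights), WT replicate 2 thinned to match the other libraries, an offset for GC content and length, an adjusted p of 0.01, a fold change of at least 1.5, and longest-transcript lengths.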

Additional observations from a re-analysis of the deposited data

How the results depend on the processing

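Under the tools, filters, scalings and thresholds tried, the counts of called genes stayed within 1.5 times of the reported ones except where a fold change of at least 1.5 was also asked for. This left 3961 of all genes (2055 higher, 1906 lower), 6 of the 37 (5 higher, 1 lower) and 30 of the other ER genes (17 higher, 13 lower), since most called changes were small. Leaving out 1 library at a time called 24 to 26 of the 37 (13 to 15 higher, 10 to 13 lower), 7520 to 7811 of all genes and 111 to 119 of the other ER genes, with fewer samples in each. An adjusted p of 0.01 called 23 of the 37. Of 518 single values of the 37 genes, 479 kept direction and call, 25 lost the call, 4 gained it and 10 changed sign. The sign changes were in Atf4 (0.02), Sdf2l1 (0.03), Pdia4 (0.09) and Sec61a1 (-0.05) with the offset for GC content and length, in Dnajb11 without the filter (0.00) and without WT replicate 1 (-0.02, within -0.02 to 0.04 over libraries left out), and in Pdia4 with the stricter filter (0.02), limma-voom (0.00), without replicate 3 labelled Cnr2 KO (0.03) and without WT replicate 2 (0.00, within -0.02 to 0.03 over libraries left out). Of these genes, Sdf2l1 alone was called, and the cause was not tested. The offset also ended the calls of Ern1 (adjusted p = 0.24) and Sec61g (0.168) and passed Ssr3 (0.041). Atf6 was lost in DESeq2 (0.0522), with WT replicate 2 thinned (0.0773) and with the stricter filter (0.0841), which also lost Sdf2l1 (0.055), and Edem2 was lost without the filter (0.0669). Median log2 fold changes of all genes stayed between -0.03 and 0.01. With the replicate number as a block, 29 of the 37 (15 higher, 14 lower), 8174 of all genes and 127 of the other ER genes were called, the addition being Ssr3 (0.0248). Same-numbered libraries correlated in their deviations at 0.066, 0.006 and 0.043, and not every library correlated best with its own number, so the numbers were not taken as pairs. For scarce genes such as Ddit3 and Dnajb9, depth and the 3 libraries a group limit how small a change could be seen.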

Other observations

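Over the 37 genes, log2 fold change had a Spearman correlation of -0.17 with the mean level per kb and of -0.09 with the GC content of the exons, and levels per kb in libraries labelled Cnr2 KO and in WT correlated at 0.98 (n = 37 genes, which share the same 6 libraries). Per length, Sec61a1 stood at 1.89 ± 0.10 times Sec61b in libraries labelled Cnr2 KO and 2.09 ± 0.031 times in WT. It stood at 9.66 ± 0.39 times Sec61g in libraries labelled Cnr2 KO and 8.22 ± 0.31 times in WT. The size of these ratios also rests on merged-exon lengths. With longest-transcript lengths, Sec61a1 and Sec61g had 286 and 18.5 CPM per kb in libraries labelled Cnr2 KO and 280 and 21.2 in WT. Hspa5 stood at 0.820, 0.813 and 0.788 times Hsp90b1 in libraries labelled Cnr2 KO, against 1.10, 1.06 and 1.09 times in WT.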
